A study of Mus musculus with 8 samples.

Results

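Expression of 49 genes of the WNT pathway was described in mouse haematopoietic stem cells (HSCs), the marrow cells that rebuild all blood lineages. The members were the genes that the authors' annotated table gives a symbol of the form Wnt or Fzd with a number, together with 20 named co-receptors, intracellular transducers, nuclear effectors and secreted inhibitors. They comprise 19 ligands, 10 frizzled receptors, the co-receptors Lrp5 and Lrp6, the receptors Ryk, Ror1 and Ror2, 3 dishevelled genes, 4 genes of the destruction complex, Ctnnb1, 4 TCF and LEF factors and 3 secreted inhibitors. All 49 were found, out of 21104 genes, on 50 of 28853 probe sets, since Wnt4 alone had 2. Each symbol is current in the mouse gene table of assembly GRCm38.p6.

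WNT proteins are lipid-modified secreted signals that bind frizzled receptors together with LRP5 or LRP6. In the canonical branch the bound receptors recruit dishevelled and disable the destruction complex of AXIN, APC and GSK3B, so that beta-catenin accumulates, enters the nucleus and acts with TCF and LEF factors on target genes. In the other branches ROR1, ROR2 and RYK serve as receptors, and the signal runs to the cytoskeleton and to calcium. In marrow, stromal and blood cells make WNT proteins, and the dose of the canonical signal is known to affect how HSCs are maintained.

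The cells came from untreated C57Bl/6 mice. After a Kit-based enrichment of marrow, the sort took cells that lack lineage markers and CD48, carry Sca-1, Kit and CD150, and are high in CD9. The 4 KO pools came from mice that carry Vav-Cre, a transgene active in blood cells, and have both Bmpr2 alleles floxed around exons 4 and 5. The gene Bmpr2 codes for one of the receptors through which bone morphogenetic proteins (BMPs) signal. The 4 WT pools came from littermates without Vav-Cre. These WT mice were not all of one genotype, since pools 1 to 4 held 1, 0, 1 and 2 mice with both alleles floxed, and the rest had a floxed allele beside an intact one, except 1 mouse of pool 3 with intact alleles only. Per the labels' protocols each pool joined bones of 3 mice, whereas 4 mice per group are named in the design text, and the pools are the replicates here (n = 4 per group). Vav-Cre was present in every KO pool and in no WT pool, so that an effect of the transgene and an effect of losing Bmpr2 cannot be told apart. The sources used here give no age.

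RNA of each pool was amplified and hybridised to 1 Affymetrix array. Levels are the authors' log2 values after robust multi-array averaging (RMA), so that a difference of 1 is a change by a factor of 2. The arrays had medians between 5.58 and 5.69, and the array least like the rest was WT pool 2, whose correlations with them had a median of 0.984 against 0.985 to 0.988 for the other pools. Levels of different probe sets are not on one scale, so genes are not ranked by level. Bmpr2 itself was at 7.22, 6.64, 6.70 and 6.91 in KO pools 1 to 4 and at 8.09, 7.63, 7.05 and 7.83 in WT pools 1 to 4. KO pool 1 lay above WT pool 3, and the other KO pools lay below every WT pool. The difference, KO minus WT, was -0.79 (standard error, SE, 0.21), with an exact permutation p of 0.0571 and limma's adjusted p of 0.967. The probe set can cover exons outside the deleted part, so this level checks the labels only in part. Of 8 HSC marker genes, Kit, Ly6a, Cd9, Slamf1, Procr, Mecom and Hlf were above the dim reference of 5.14 used below. Procr, Mecom and Hlf were not part of the sort. Cd48, whose protein is absent from the sorted cells by design, was below the reference, at 5.08 over all pools. Its KO mean of 5.17 was above the reference and its WT mean of 4.99 below it. Among other marker genes, all 8 measured megakaryocyte markers and all 20 genes of the G2 and M phases had a higher mean in KO. The share was 48.7% of all genes and 53.6% of genes above the reference. The counts fell to 6 of 8 without WT pool 1 and to 17 of 20 without KO pool 3. The megakaryocyte list had a mean level from 8.41 to 8.82 in KO pools against 8.05 to 8.64 in WT pools, and the G2 and M list 7.99 to 8.48 against 7.52 to 8.28. Their part in the differences of WNT genes was not tested.

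No member changed between KO and WT at an adjusted p under 0.05, and neither did any other gene (0% of 21104 genes). In bulk RNA, fewer cells of a type and less RNA per cell cannot be told apart. The differences of the 49 members ran from -0.44 for Fzd8 to 0.29 for Fzd7, and limma's adjusted p was at least 0.967 for each. None reached a 1.5-fold difference, against 0.611% of all genes. The 95% interval of the difference lay inside 2-fold either way for all 49 members (98.6% of all genes) and inside 1.5-fold for 44 of them (83.9% of all genes). The exceptions at 1.5-fold were Fzd3, Fzd7, Fzd8, Dvl3 and Sfrp1. Of the 34 members with a mean above the dim reference described below, all lay inside 2-fold and 29 inside 1.5-fold. The other 15 members had a mean at or below that reference, where RMA compresses differences. The intervals of these 15 members therefore do not bound the change in their RNA. The median difference of the members was -0.01, and that of all genes was -0.004. Of the members 28 were below 0 and 21 above it, where 51.3% of all genes were below. This split depended on scaling, with 20 below and 29 above after centring each array on its median, and 23 and 26 after a further quantile normalization.

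**Figure D1:**
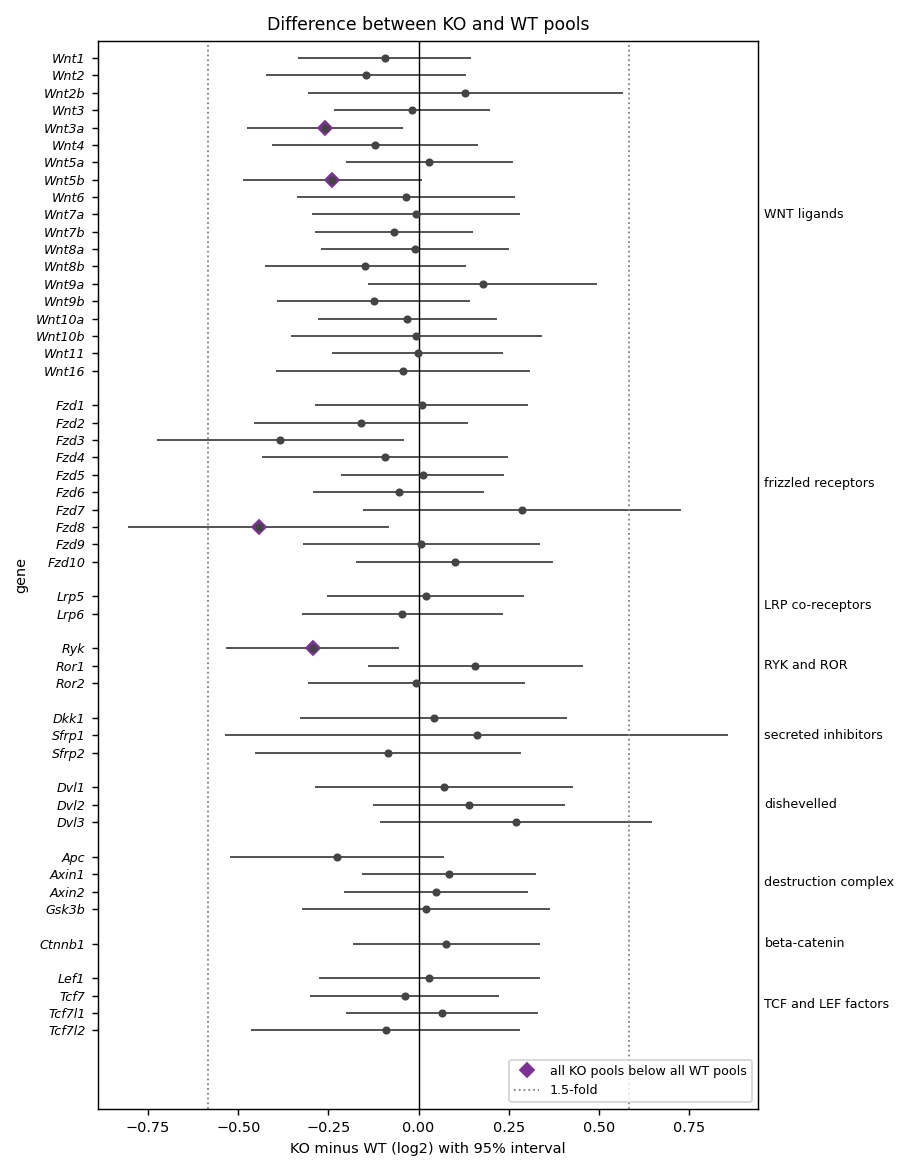
Difference between the KO and WT means (horizontal axis, log2) with its 95% interval from limma for each of the 49 genes (vertical axis), grouped by role. Dotted lines mark 1.5-fold, and diamonds mark the 4 genes whose KO pools all lay below all WT pools. No interval reaches 2-fold, and Fzd8 lies lowest at -0.44. For the 15 genes with a mean at or below the dim reference RMA compresses differences, so their intervals do not bound the change in RNA.

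At an unadjusted p under 0.05 limma gave 4 members lower in KO and 0 higher, which is 8.16% of the members, against 2.25% and 2.3% of all genes in these directions. All KO pools lay below all WT pools in 4 members (1.5% of all genes) and above them in 0 (1.09% of all genes), or in 4 in either direction (2.58% of all genes). These sets shared Ryk, Fzd8 and Wnt3a. Fzd3 stood only in the first set and Wnt5b only in the second. In the authors' deposited comparison 3 members, 6.12% of them, had an unadjusted p under 0.05, against 4.33% of all genes. These were Ryk, Wnt3a and Wnt5b.

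The RefSeq promoter sequences of 3 of the members without overlap are given here, each as the 250 bases before the most upstream annotated start, 5′ to 3′ on the strand of the gene, in assembly GRCm38.p6. Capitals mark a match to GGCGCC, a GC-rich motif bound by SMAD1 and SMAD5, the factors that BMP receptors activate.
Ryk, chr9:102834670-102834919, plus strand: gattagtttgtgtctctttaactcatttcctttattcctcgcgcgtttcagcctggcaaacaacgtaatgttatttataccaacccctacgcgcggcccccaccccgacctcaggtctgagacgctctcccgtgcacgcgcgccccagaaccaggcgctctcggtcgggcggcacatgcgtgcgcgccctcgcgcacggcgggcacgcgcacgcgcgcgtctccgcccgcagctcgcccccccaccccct
Wnt3a, chr11:59290752-59291001, minus strand: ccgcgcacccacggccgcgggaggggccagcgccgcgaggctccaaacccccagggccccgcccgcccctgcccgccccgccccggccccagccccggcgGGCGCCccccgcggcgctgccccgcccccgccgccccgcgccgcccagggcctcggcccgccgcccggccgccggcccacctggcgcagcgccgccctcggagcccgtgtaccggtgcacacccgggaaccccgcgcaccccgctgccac
Wnt5b, chr6:119544348-119544597, minus strand: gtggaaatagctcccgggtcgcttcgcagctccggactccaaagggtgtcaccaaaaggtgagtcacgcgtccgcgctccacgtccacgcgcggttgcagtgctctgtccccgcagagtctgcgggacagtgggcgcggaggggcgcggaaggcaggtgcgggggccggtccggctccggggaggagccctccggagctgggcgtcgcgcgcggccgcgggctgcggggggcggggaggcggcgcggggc

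The Wnt3a window held 1 such match and was 87.6% G and C, while the windows of Ryk and Wnt5b, at 65.2% and 75.2%, held 0. Promoters were in the table for 36 of the 49 members, with 45 windows. GGCGCC, which reads the same on both strands, stood in 16 of the 45 windows, or 35.6%, and in 9.59% of all 32851 windows. The member windows were GC-rich, with a median of 69.2% against 52.4% for all windows. Among the 3427 windows with at least that GC content, 36.8% held the motif. The core of the TCF and LEF site, CTTTGAT or its reverse complement, stood in 2 member windows, 1 each of Wnt11 and Wnt5b, and in 3.21% of all windows. The Wnt5b match lay at another of its 3 annotated starts. These are matches of letters and show no binding.

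Ryk encodes a receptor tyrosine kinase-like protein without catalytic activity that binds WNT ligands. Its level was 7.04, 6.96, 6.86 and 7.06 in KO pools 1 to 4, whereas WT pools 1 to 4 were at 7.45, 7.29, 7.15 and 7.21. The highest KO pool and the lowest WT pool were 0.082 apart. The difference was -0.29 (SE 0.11), or 1.23-fold lower with a 95% interval from 1.04-fold to 1.45-fold. The exact permutation p was 0.0286, the smallest that 4 against 4 pools can give, and limma's p was 0.0205 before and 0.967 after adjustment. Any gene whose groups do not overlap has this exact permutation p. It therefore adds nothing to the lack of overlap, for Ryk or for Fzd8, Wnt3a and Wnt5b below. The authors' deposited table gives Ryk a signed fold of -1.23 and an unadjusted p of 0.0110. Without KO pool 3 or WT pool 1 limma's unadjusted p for Ryk was above 0.05. The other receptors of this class lay closer to 0. Ror1 was at 4.61 ± 0.22 in KO against 4.45 ± 0.17 in WT (SD, n = 4), and Ror2 was at 5.77 ± 0.19 and 5.78 ± 0.20.

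Fzd8 had the lowest difference among the members. It was at 5.75, 5.47, 4.95 and 5.65 in KO pools 1 to 4 and at 6.01, 5.76, 5.83 and 6.01 in WT pools 1 to 4. KO pool 3 lay well below the rest, and KO pool 1 and WT pool 2 were only 0.003 apart. The level in KO pool 3 was under the dim reference of 5.14 described below, where RMA compresses differences. The difference was -0.44 (SE 0.17), or 1.36-fold lower with an interval from 1.06-fold to 1.75-fold (exact permutation p 0.0286, limma's unadjusted p 0.0209). Without KO pool 3 it was -0.28, with an unadjusted p of 0.0545 in limma. In the authors' deposited table Fzd8 has a signed fold of -1.36 and an unadjusted p of 0.0579.

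Fzd3, a frizzled gene known for axon guidance and planar polarity, was at 5.42, 5.02, 5.12 and 5.54 in KO pools 1 to 4. In WT pools 1 to 4 it was at 5.95, 5.44, 5.77 and 5.47. KO pool 4 lay above WT pools 2 and 4, so the groups overlapped. The difference was -0.38 (SE 0.16), with an exact permutation p of 0.114 and an unadjusted p of 0.0311 in limma. Leaving out WT pool 1 gave -0.29 and leaving out KO pool 4 gave -0.47. Fzd3 has a signed fold of -1.30 and an unadjusted p of 0.0691 in the authors' deposited table.

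Fzd7 stood on the other side of 0 with the highest difference of the family. Its level was 6.31, 5.73, 6.36 and 6.69 in KO pools 1 to 4 against 6.21, 5.71, 5.76 and 6.26 in WT pools 1 to 4. Pool 2 was lowest in each group and the groups overlapped, with a difference of 0.29 (SE 0.20). It was 0.15 without KO pool 4 and 0.47 without KO pool 2. The remaining frizzled genes differed by at most 0.16. Fzd6 was at 6.84 ± 0.14 in KO against 6.90 ± 0.06 in WT (SD, n = 4), Fzd9 at 6.06 ± 0.28 and 6.06 ± 0.16, and Fzd5 at 5.72 ± 0.09 and 5.71 ± 0.09. Fzd1 was at 5.29 ± 0.19 and 5.28 ± 0.19. Fzd2, Fzd4 and Fzd10 were at or below the reference for dim probe sets given below, at 4.51, 5.06 and 5.00 over all pools. Of the 10 frizzled genes 5 were below 0 and 5 above.

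**Figure D2:**
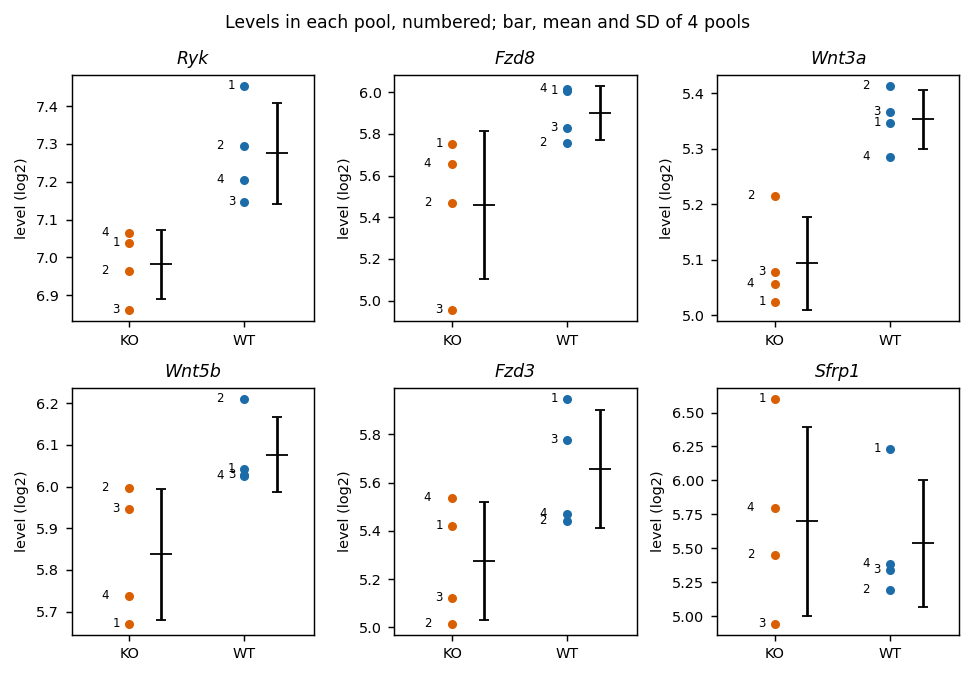
Level (log2, vertical axis) of Ryk, Fzd8, Wnt3a, Wnt5b, Fzd3 and Sfrp1 in each KO and WT pool, with the pool number beside the point and the mean and SD of 4 pools as a bar. The KO pools of the first 4 genes lie below all their WT pools, by as little as 0.003 for Fzd8, and pool 1 is highest in both groups for Sfrp1.

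The co-receptors, which pass the canonical signal on to AXIN, were nearly alike in the groups. Lrp5 was at 7.09 ± 0.22 in KO against 7.07 ± 0.08 in WT, and Lrp6 at 7.74 ± 0.14 and 7.78 ± 0.19 (SD, n = 4). Their differences were 0.02 with a 95% interval from -0.25 to 0.29, and -0.05 with an interval from -0.32 to 0.23.

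Among the ligands, Wnt3a, a canonical ligand known to act on blood progenitors, was at 5.02, 5.22, 5.08 and 5.06 in KO pools 1 to 4. It was at 5.35, 5.41, 5.37 and 5.29 in WT pools 1 to 4. The lowest WT pool lay 0.070 above the highest KO pool. The difference was -0.26 (SE 0.10), with an exact permutation p of 0.0286 and an unadjusted p of 0.0230 in limma. The KO mean of 5.09 lay below the dim reference of 5.14 described below, and Wnt3a passed that reference only through its WT mean of 5.35. The difference therefore sets a level above the reference against one that is not, and no fold is drawn from it here. The authors' deposited table gives Wnt3a a signed fold of -1.20 and an unadjusted p of 0.00198. Wnt9a, the protein-coding neighbour of Wnt3a on chromosome 11, differed by 0.18 (SE 0.14) and was on the other side of 0.

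Wnt5b, a ligand of the non-canonical branch, was at 5.67, 6.00, 5.95 and 5.74 in KO pools 1 to 4 and at 6.04, 6.21, 6.03 and 6.03 in WT pools 1 to 4. WT pool 2 was far above the other WT pools, and the groups were 0.030 apart. The difference was -0.24 (SE 0.11), with a 95% interval from -0.49 to 0.01, an exact permutation p of 0.0286 and an unadjusted p of 0.0575 in limma. It was -0.19 without WT pool 2 and -0.18 without KO pool 1. The authors' deposited table gives Wnt5b a signed fold of -1.18 and an unadjusted p of 0.0386. Wnt5a, its close relative, was at 4.02 ± 0.13 in KO against 3.99 ± 0.05 in WT (SD, n = 4), under the dim reference.

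Of the 19 ligands 16 were lower in KO by their means and 3 higher, Wnt2b, Wnt5a and Wnt9a. Of all genes 51.3% were lower, and of the 7950 genes at or below the dim reference 59.2%. None of the ligands passed the test, and their differences ran from -0.26 to 0.18 with a median of -0.03. The count rested on WT pool 2. In that pool 12 of the 19 ligands had their highest level, 63.2% of them, against 25.4% of genes at or below the reference and 18.2% of all genes. The ligands lay a median of 0.19 above their own means there, and between -0.14 and 0.03 in the other pools. Without WT pool 2 only 8 of the 19 ligands were lower in KO. Scaling moved the count as well, to 10 of 19 after a further quantile normalization and 9 of 19 with the arrays centred on their medians, and so did leaving out KO pool 1, with 10 of 19. WT pool 2 had the highest lower quartile of the arrays, at 4.37 against 4.19 to 4.31 in the others.

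**Figure D3:**
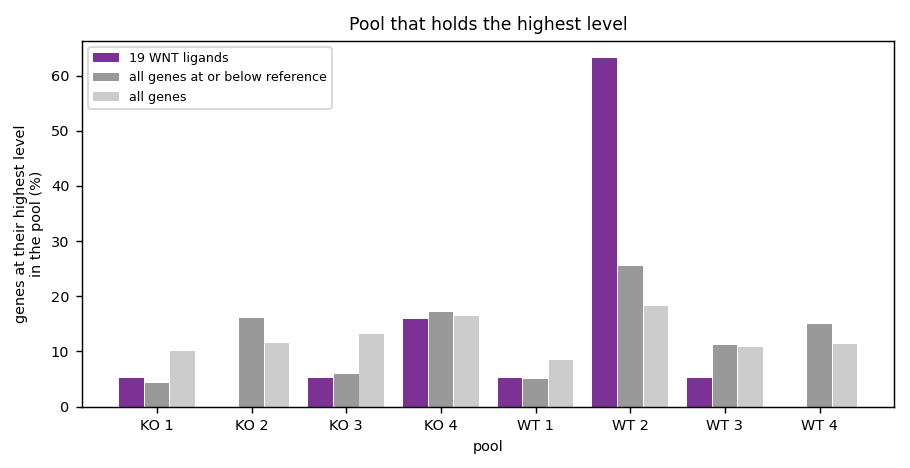
Share of genes (vertical axis, percent) whose highest level of the 8 pools lay in each pool (horizontal axis), for the 19 ligands, for all genes at or below the dim reference and for all genes. WT pool 2 holds the highest level of 63.2% of the ligands, 25.4% of the dim genes and 18.2% of all genes.

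RMA values carry no call of presence, so the members were set against the probe sets of olfactory receptor genes, which are taken as silent in blood. The 95th percentile of 1127 such probe sets was 5.14. Over all pools 34 of 49 members, 69.4%, had a mean above it, as had 62.3% of all genes. Above it were 11 of 19 ligands, 7 of 10 frizzled genes, both LRP co-receptors, 2 of 3 genes of the Ryk and Ror class and 10 of 12 intracellular members. The ligands at or below it were Wnt1, Wnt2, Wnt3, Wnt5a, Wnt7a, Wnt8a, Wnt8b and Wnt16, with means from 3.45 to 4.75. The ligands above it were Wnt2b, Wnt3a, Wnt4, Wnt5b, Wnt6, Wnt7b, Wnt9a, Wnt9b, Wnt10a, Wnt10b and Wnt11, with means from 5.16 to 6.65. Wnt9b, like Wnt3a, passed only through its WT mean, at 5.138 in KO and 5.263 in WT against a reference of 5.144. Lef1 passed only through its KO mean, at 5.167 in KO and 5.137 in WT. With the 99th percentile, 5.90, in place of the 95th, 17 of 49 members were above, and only Wnt4, Wnt5b and Wnt10a of the ligands.

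Wnt4, a ligand known for roles in kidney and gonad formation, was at 6.57, 6.59, 6.47 and 6.75 in KO pools 1 to 4 and at 6.76, 6.95, 6.74 and 6.40 in WT pools 1 to 4. The groups overlapped, and the difference was -0.12 (SE 0.13). Its second probe set, between 4.58 and 5.19, differed by -0.01 (SE 0.14). Wnt10a was at 5.90 ± 0.07 in KO against 5.93 ± 0.17 in WT, and Wnt10b, a ligand known in blood and bone, at 5.40 ± 0.11 and 5.41 ± 0.34 (SD, n = 4). Wnt2b was at 5.42 ± 0.25 and 5.29 ± 0.41, and its 8 pools ran from 4.73 to 5.68. Wnt6 and Wnt10a lie next to each other, as do Wnt10b and Wnt1, and Wnt9b and Wnt3, whose annotations overlap. The differences in these pairs were -0.03 and -0.03, -0.01 and -0.09, and -0.12 and -0.02.

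**Figure D4:**
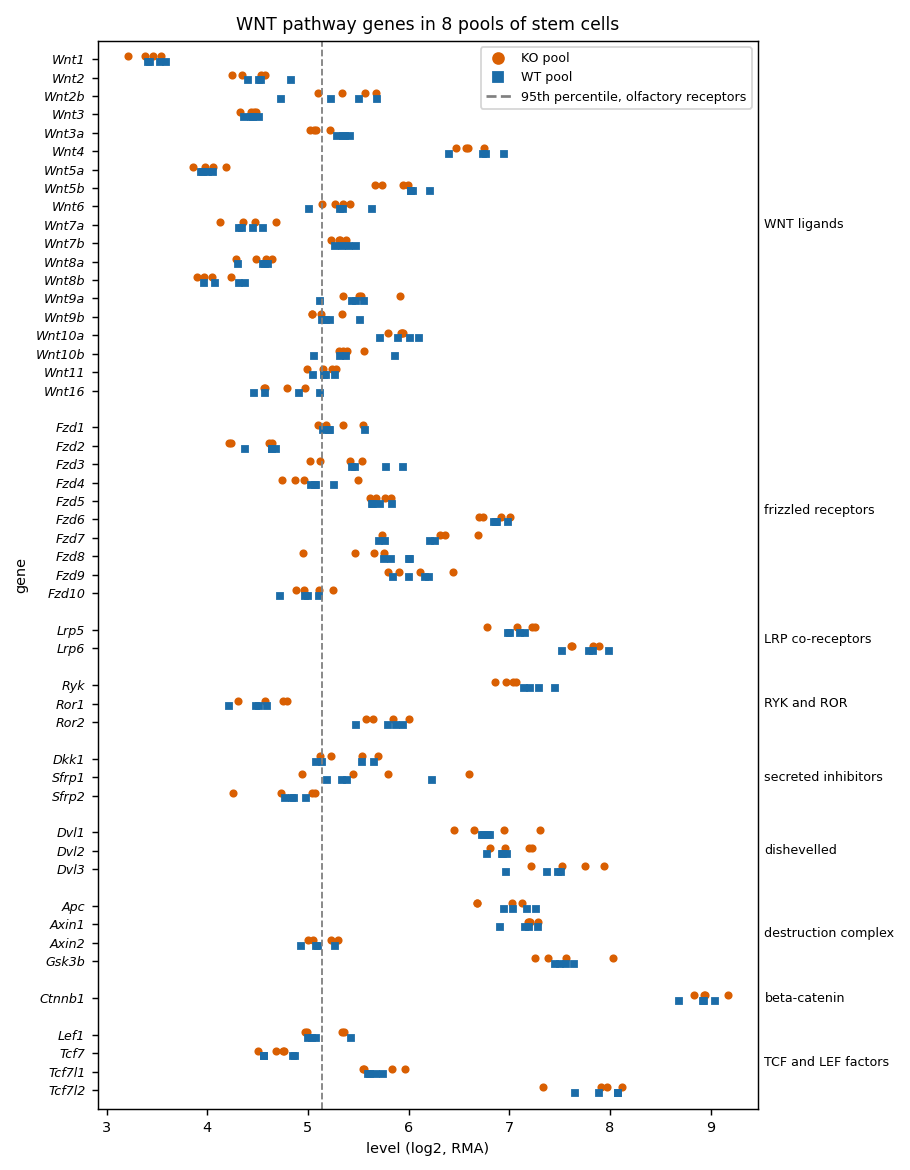
Level (horizontal axis, log2) of the 49 genes (vertical axis) in each of the 4 KO pools and 4 WT pools, grouped by role. The dashed line is the 95th percentile of olfactory receptor probe sets, 5.14; 15 genes have a mean at or below it, 8 of them ligands, and levels of different genes are not on one scale.

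Secreted inhibitors bind WNT proteins, as SFRP1 and SFRP2 do, or the LRP co-receptors, as DKK1 does. Sfrp1 varied more among pools than any other member, with 6.60, 5.45, 4.94 and 5.80 in KO pools 1 to 4 against 6.23, 5.19, 5.34 and 5.38 in WT pools 1 to 4. Pool 1 was highest in each group, and the 8 pools spanned 1.65, against a median span of 0.53 for the members and 0.57 for all genes. The difference was 0.16 (SE 0.32), with the widest interval of the members, from -0.54 to 0.86. Stromal cells also make Sfrp1. The list of 12 stromal and osteoblast markers was at 5.34 in KO pool 1 and 5.33 in WT pool 1, within the range of the other pools, from 5.23 to 5.55. Of these markers 8 were above the dim reference, and Lepr, Pdgfra, Sp7 and Ibsp were not. The part of stromal cells in the level of Sfrp1 was not tested. Dkk1 was at 5.39 ± 0.27 in KO against 5.35 ± 0.29 in WT, and Sfrp2, which was below the reference, at 4.78 ± 0.38 and 4.86 ± 0.09 (SD, n = 4).

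The dishevelled genes encode the scaffold proteins that link the receptors to the destruction complex, and all 3 had a higher mean in KO without passing the test. Dvl3 was at 7.75, 7.21, 7.52 and 7.94 in KO pools 1 to 4 and at 7.49, 6.97, 7.51 and 7.37 in WT pools 1 to 4. Pool 2 was lowest in each group, and the difference was 0.27 (SE 0.17). It was 0.15 without WT pool 2 and 0.40 without KO pool 2. Dvl2 was at 7.05 ± 0.20 in KO against 6.91 ± 0.09 in WT, and Dvl1 at 6.84 ± 0.37 and 6.77 ± 0.04 (SD, n = 4). KO pool 2 was highest for Dvl1, at 7.30, where the WT pools lay between 6.72 and 6.81. Without that pool the difference of Dvl1 was -0.08, on the other side of 0.

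In the destruction complex, Apc, which encodes a scaffold that holds beta-catenin for phosphorylation, was at 7.13, 6.68, 7.03 and 6.68 in KO pools 1 to 4. It was at 7.27, 6.94, 7.18 and 7.04 in WT pools 1 to 4. KO pools 2 and 4 lay below every WT pool and the groups overlapped, with a difference of -0.23 (SE 0.14, exact permutation p 0.171). Without KO pool 1 the difference was -0.31. Axin1 was at 7.22 ± 0.05 in KO against 7.13 ± 0.16 in WT, and the kinase gene Gsk3b at 7.56 ± 0.34 and 7.54 ± 0.08 (SD, n = 4). Gsk3b was highest in KO pool 1, at 8.03, and between 7.25 and 7.64 in the other pools.

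Axin2, a negative regulator that is itself a direct target of canonical signalling and serves as its common readout, was at 5.14 ± 0.14 in KO against 5.10 ± 0.14 in WT (SD, n = 4). Its difference was 0.05, with an interval from -0.21 to 0.30. With a mean of 5.12 over all pools it lay at the dim reference of 5.14, where RMA compresses differences.

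Ctnnb1, which encodes beta-catenin, was at 8.94, 8.84, 9.17 and 8.94 in KO pools 1 to 4 and at 8.93, 8.68, 8.93 and 9.04 in WT pools 1 to 4. The groups overlapped throughout, and the difference was 0.08 with an interval from -0.18 to 0.34. Beta-catenin is controlled chiefly through protein stability, which these arrays do not measure.

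Of the TCF and LEF factors, Tcf7l2 was at 7.83 ± 0.34 in KO against 7.92 ± 0.20 in WT, and Tcf7l1, known mainly as a repressor, at 5.73 ± 0.21 and 5.66 ± 0.07 (SD, n = 4). Pool 3 was lowest for Tcf7l2 in each group, at 7.34 and 7.66. Lef1 and Tcf7, which are prominent in T cells, were close to or under the dim reference, with means of 5.15 and 4.69 over all pools. Their differences were 0.03 with an interval from -0.28 to 0.34, and -0.04 with an interval from -0.30 to 0.22. Among T cell markers, Cd3d, Cd3g, Cd28, Trat1 and Zap70 were at or below the reference, while Lat at 8.33, Cd247 at 5.90, Cd3e at 5.86, Lck at 5.71, Cd5 at 5.26 and Cd6 at 5.23 were above it. Of the 12 intracellular members in all, 9 were above 0 and 3 below, or 6 and 6 without KO pool 2, with differences from -0.23 to 0.27.

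Other genes of the pathway were taken as 7 lists. No gene in them passed at an adjusted p under 0.05, and at an unadjusted p under 0.05 limma gave 4 genes, Ccnd1, Myc and Tbl1x higher and Tnks lower in KO, where 4.55% of all genes were under that level. Of 9 genes of WNT secretion 4 were higher and 5 lower, with a median of -0.03, and 6 were higher and 3 lower with the arrays centred on their medians. Wls, which carries WNT proteins to the cell surface, was at 7.70 ± 0.11 in KO against 7.74 ± 0.07 in WT, and Porcn, the enzyme gene that attaches their lipid, at 5.91 ± 0.21 and 6.04 ± 0.10 (SD, n = 4). Vps26a, Snx3 and Vps35, whose products return WLS from endosomes, differed by 0.26 (SE 0.15), 0.21 (SE 0.14) and 0.20 (SE 0.15).

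Of the 9 genes of the R-spondin axis, which sets how long frizzled receptors stay on the surface, 4 were higher and 5 lower, and only Lgr6, Znrf3 and Rspo1 were above the dim reference. Rspo2, Lgr5 and Rnf43 differed by -0.20 (SE 0.15), -0.08 (SE 0.12) and -0.09 (SE 0.13). Of 14 further secreted or membrane antagonists and their receptors 5 were higher and 9 lower, and 7 were above the reference. This split turned to 9 higher and 5 lower after a further quantile normalization, and to 8 and 6 without WT pool 2 or without KO pool 1. The differences with the largest statistics were 0.38 (SE 0.19) for Sfrp4, -0.18 (SE 0.10) for Dkk4, whose KO pools all lay below all WT pools, and 0.12 (SE 0.13) for Sfrp5, all under the reference. Of 15 planar polarity genes 7 were higher and 8 lower, or 9 and 6 after a further quantile normalization. Celsr1, an atypical cadherin gene, differed by -0.22 (SE 0.12), Rac1 by 0.19 (SE 0.13) and Prickle3 by 0.17 (SE 0.11).

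Of 19 further kinases, ligases and regulators of the destruction complex 12 were higher and 7 lower, with a median of 0.05, and 7 were higher and 12 lower after a further quantile normalization. Tnks encodes a tankyrase, which marks AXIN for degradation. It was at 7.91, 7.74, 7.76 and 7.81 in KO pools 1 to 4 and at 7.93, 8.05, 8.13 and 8.10 in WT pools 1 to 4. All KO pools lay below all WT pools, with a difference of -0.25 (SE 0.10, limma's adjusted p 0.967). Csnk1d differed by 0.24 (SE 0.14) and Nkd2 by -0.21 (SE 0.13).

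Of 20 nuclear cofactors 17 were higher and 3 lower, with a median of 0.10, where 48.7% of all genes were higher and 53.6% of genes above the reference. The count was 12 of 20 without WT pool 2 and 13 of 20 without KO pool 4. Tbl1x, a corepressor subunit gene, was at 8.57 ± 0.09 in KO against 8.27 ± 0.24 in WT, a difference of 0.31 (SE 0.13). Tle2, a Groucho-type corepressor gene, was at 6.70 ± 0.31 and 7.01 ± 0.06 (SD, n = 4), and the groups differed by -0.31 (SE 0.15). Smarca4, a chromatin remodeller gene, differed by 0.24 (SE 0.12).

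Of 20 genes known as WNT targets in various tissues, 4 of them members, 11 were higher and 9 lower, with a median of 0.02. The highest were Myc and Ccnd1, which many other pathways also control. Ccnd1, a G1 cyclin gene, was at 8.91, 8.37, 8.43 and 8.66 in KO pools 1 to 4 and at 8.39, 8.26, 8.17 and 8.0 in WT pools 1 to 4. KO pool 2 alone lay below a WT pool, and the difference was 0.39 (SE 0.14). Myc was at 11.02 ± 0.24 in KO against 10.61 ± 0.31 in WT (SD, n = 4), and the groups differed by 0.41 (SE 0.17). Ccnd2 differed by 0.14 (SE 0.13). Targets known as feedback genes of the pathway itself, Axin2, Nkd1, Notum, Rnf43, Znrf3 and Sp5, differed by 0.05, -0.07, -0.04, -0.09, -0.10 and 0.11. Of these only Znrf3, with a mean of 6.23 over all pools, was above the dim reference. The others had means from 4.95 to 5.12, where RMA compresses differences.

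**Figure D5:**
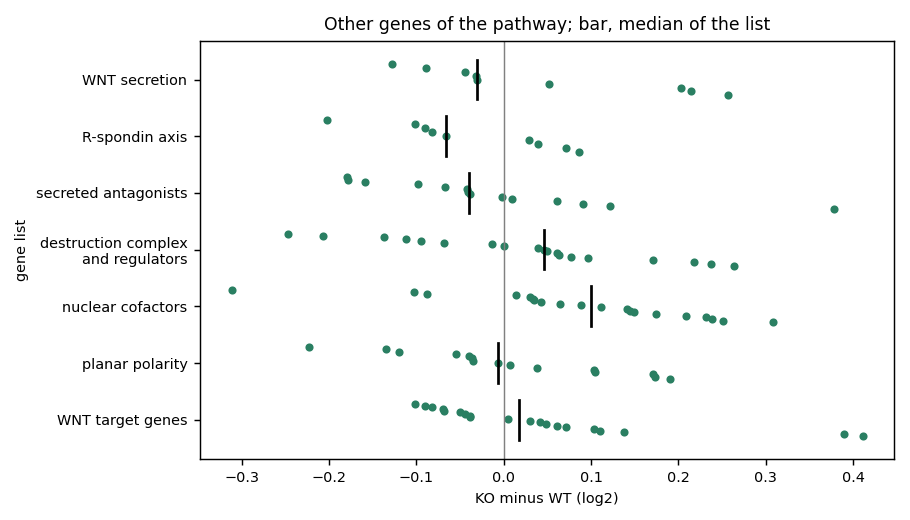
Difference between the KO and WT means (horizontal axis, log2) of each gene in the 7 lists of other pathway genes (vertical axis), with the median of each list as a bar. The medians lie between -0.07 and 0.10, and the points of the target list above 0.35 are Ccnd1 and Myc.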

How the data were processed

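Per the submitters' processing notes, the authors processed the array intensities with RMA in Affymetrix Expression Console 1.3, and the deposited values are log2 levels from 1.47 to 13.26. The value table and the annotated table differ by at most 1.8e-15. The authors' deposited comparison holds a log2 ratio, a signed fold change (a score with a minus sign where KO is lower) and an unadjusted p-value, per the file headers. The sources used here name neither the genome build nor the annotation of these values. RMA makes the arrays' distributions alike and compresses dim values, and the number of arrays limits the precision. Of the probe sets 23586 had 1 symbol, and for 1351 genes with several the one with the highest mean was kept. KO was compared with WT in R 4.3.3 with limma 3.58.1 (lmFit, eBayes, no covariate, Benjamini-Hochberg over 21104 genes), which was tested on simulated data. Exact 2-sided permutation tests used all assignments of 4 against 4 pools. Members and lists were chosen with earlier results of these data known. Named with values are Bmpr2, members above the olfactory reference, the 8 members with the smallest p, every member with an unadjusted p under 0.05 or without overlap, and up to 3 genes per list by moderated t. Wls, Porcn, the listed feedback targets and the remaining members were chosen after their values were seen. Alternatives covered normalization, centring, filters on dim probe sets, probe set choice, variance model, array weights, Xist as a covariate, the replicate block and leaving out each pool. Some marker results are not reported here.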

Additional observations from a re-analysis of the deposited data

Results flagged for a closer look

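In 5 of 100 groups of 4 pools, taken over the 49 members and Bmpr2, 1 pool stood apart from the other 3, its gap to the nearest other pool, as a share of the group's range, being above Dixon's 95% critical value. Chance alone marks about 1 in 20 groups. Axin1 was at 7.29 in KO pool 4, with the other KO pools between 7.19 and 7.20. Fzd1 was at 5.57 in WT pool 2, with the others between 5.15 and 5.21, and Wnt5b at 6.21 in the same pool, with the others between 6.03 and 6.04. Fzd2 was at 4.38 in WT pool 1, below the others at 4.64 to 4.69, and Fzd6 at 6.99 in that pool, above the others at 6.85 to 6.87.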

How the results depend on the processing

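The count of members at an adjusted p under 0.05 was 0 in limma under every alternative tried, and no difference of the 8 members with the smallest p changed sign. The sign of a difference changed under at least 1 alternative in 27 of the 49 members, none of them among those 8 and none with a difference over 0.16 in size. After a further quantile normalization, the changed differences were -0.0002 for Ctnnb1, -0.035 for Gsk3b, -0.022 for Lrp5, 0.029 for Ror2, 0.0006 for Tcf7, 0.026 for Wnt10b, 0.043 for Wnt11, 0.026 for Wnt3, 0.0083 for Wnt6, 0.034 for Wnt7a and 0.034 for Wnt8a. With arrays centred on their medians, the changed differences were 0.029 for Ror2, 0.0035 for Wnt10a, 0.029 for Wnt10b, 0.033 for Wnt11, 0.017 for Wnt3, 0.0003 for Wnt6, 0.028 for Wnt7a and 0.027 for Wnt8a. With array weights, the changed differences were 0.0058 for Ror2, 0.040 for Wnt10b, 0.0053 for Wnt11, 0.0004 for Wnt6 and 0.013 for Wnt8a. With Xist as a covariate, the changed differences were -0.034 for Fzd1, -0.014 for Gsk3b, 0.0030 for Ror2 and 0.041 for Wnt7a. Leaving out 1 pool changed the sign in 26 members, whose differences then ran from -0.0054 to 0.11 for Axin2, -0.059 to 0.14 for Dkk1, -0.084 to 0.20 for Dvl1, -0.074 to 0.10 for Fzd1, -0.022 to 0.054 for Fzd5, -0.12 to 0.097 for Fzd9, -0.14 to 0.12 for Gsk3b, -0.035 to 0.13 for Lef1 and -0.037 to 0.12 for Lrp5. They ran from -0.13 to 0.024 for Lrp6, -0.10 to 0.056 for Ror2, -0.14 to 0.41 for Sfrp1, -0.18 to 0.088 for Sfrp2, -0.088 to 0.018 for Tcf7, -0.015 to 0.13 for Tcf7l1, -0.18 to 0.074 for Tcf7l2, -0.10 to 0.026 for Wnt10a and -0.12 to 0.15 for Wnt10b. The remaining ranges were -0.039 to 0.057 for Wnt11, -0.15 to 0.075 for Wnt16, -0.055 to 0.26 for Wnt2b, -0.045 to 0.017 for Wnt3, -0.025 to 0.083 for Wnt5a, -0.14 to 0.067 for Wnt6, -0.099 to 0.089 for Wnt7a and -0.075 to 0.064 for Wnt8a. Over all genes the count stayed at 0 except with the replicate number as a block, where 2 genes passed, neither a member, and 1689 genes were at an unadjusted p under 0.05 against 960. That block gave 6 members lower and 2 higher at an unadjusted p under 0.05, with limma's adjusted p from 0.583 upward. Deviations of same-numbered pools correlated by 0.062 to 0.305, and all 8 pools correlated best with their own number, but only 3 of 4 pairs were over 0.1 and the labels do not explain the numbers. The members lower at an unadjusted p under 0.05, 4 as reported, were 3 with Xist as a covariate, with equal variances, without WT pool 3 and without WT pool 4. They were 1 without KO pool 3, 1 without WT pool 1 and 1 of 17 tested among genes above the median level. Without KO pool 2 they were 4, with 2 members higher. Members above the reference for dim probe sets, 34, were 17 with its 99th percentile and 17 with the median of all genes. The causes were not tested. Dim probe sets limit what can be seen of the ligands, since 8 of 19 lie at the level of olfactory receptors.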

Other observations

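Markers of other blood and marrow cells were described in the same pools. Of 10 endothelial markers 7 were above the dim reference, with a list mean from 6.24 to 6.51 in KO pools against 6.23 to 6.40 in WT pools, and Cdh5, Kdr and Sox17 were not. Granulocyte and monocyte markers varied most among pools, from 6.01 to 7.06 in KO and from 5.74 to 6.99 in WT, with 8 of 11 higher in KO by their means. Erythroid markers were between 5.95 and 6.44 in KO pools and between 5.99 and 6.37 in WT pools, with 5 of 9 higher. The share of all genes that were higher in KO was 48.7%. The part of these cells in the levels of the WNT genes was not tested.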
